A study of Mus musculus with 12 samples.

Results

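The classical and nonclassical genes of the mouse major histocompatibility complex (MHC, called H2 in the mouse) were taken as every protein-coding gene of the GENCODE mouse annotation, release M21, that lies on chromosome 17 and has a symbol starting with H2-. This gave 34 genes of 21938 protein-coding genes. They comprised 24 class I genes, 9 class II genes and H2-Ke6, a hydroxysteroid dehydrogenase gene that carries an H2- symbol but encodes no MHC molecule. The class I genes were the classical pair H2-K1 and H2-D1, 6 Q genes, 4 T genes and 12 M genes.

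MHC class I molecules sit on nearly all nucleated cells and show peptides from inside the cell to CD8+ T cells, while the nonclassical Q, T and M molecules have narrower expression and more specialised ligands. MHC class II molecules are made mainly by B cells, dendritic cells and macrophages, are loaded with peptides in endosomes and are read by CD4+ T cells. Class II genes and many class I genes share a promoter module read by the RFX, CREB and NF-Y factors, whose NF-Y site is a CCAAT box, and the co-activators CIITA and NLRC5 act through this module. The C57BL/6 strain carries the H2b haplotype, in which H2-Ea is inactive.

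The data were peaks from chromatin immunoprecipitation followed by sequencing (ChIP-seq) of MOF (KAT8), the acetyltransferase that deposits H4K16ac, in visceral white adipose tissue (WAT). All mice were 8 weeks old, of the C57BL/6 strain (C57BL/6J in the methods, by backcross) and fed a standard diet, and were either wild type (Mof+/+) or heterozygous for the loss of Mof (Mof+/-). The 12 libraries comprised 2 MOF ChIP, 2 H3 ChIP and 2 input libraries of each genotype, and the MOF ChIP antibody was from abcam according to the labels. There was 1 deposited peak list per genotype, with 19773 peaks for Mof+/+ and 731 for Mof+/-, and the methods describe joining peaks within 1000 bp but do not say whether both MOF ChIP libraries of a genotype were pooled before or after calling. The design text names 2 control and 3 Mof+/- animals, while the labels list 2 libraries of each kind per genotype. The paper's reporting summary gives 2 littermates per genotype for ChIP-seq. With a single list each, no spread between replicates could be measured and no difference between the genotypes was tested. WAT holds immune and vascular cells beside adipocytes, and in such whole tissue fewer cells of a type and less MOF per cell cannot be told apart.

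A peak was assigned to a gene when at least 1 bp of it lay in the gene body or within 3 kb of any annotated start site. The main start site was that of the principal protein-coding transcript. Fold enrichment is the ratio of ChIP over input at the peak summit. The number of fragments behind it was recovered from the fold enrichment and the p-value, and the 95% intervals given are exact Poisson intervals on those fragments, which cover counting error only. The background recovered in the same way went no lower than 3.52 fragments for Mof+/+ and 2.26 for Mof+/-, and read depth itself was not measured here. For a site at the latter background, 11 fragments and a fold enrichment of 3.68 were needed to reach the least significant Mof+/- call.

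The bases around the start sites are shown for their CCAAT boxes, the 1 element of the promoter module that was searched for. RefSeq promoter sequences (GRCm38.p6, 250 bases before to 50 after the start) were matched for 31 of the 34 genes, and H2-Ab1, H2-Q1 and H2-T24 had none. The classical class I genes H2-K1 (chr17:34000298-34000597, minus strand) and H2-D1 (chr17:35262844-35263143, plus strand) and the class II gene H2-Eb1 (chr17:34305617-34305916, plus strand) are shown 5′ to 3′ in the direction of transcription, with CCAAT in capitals on either strand, where ATTGG is the reverse complement. The RefSeq start of H2-D1 lies 364 bp from the main start used for the peaks.
H2-K1: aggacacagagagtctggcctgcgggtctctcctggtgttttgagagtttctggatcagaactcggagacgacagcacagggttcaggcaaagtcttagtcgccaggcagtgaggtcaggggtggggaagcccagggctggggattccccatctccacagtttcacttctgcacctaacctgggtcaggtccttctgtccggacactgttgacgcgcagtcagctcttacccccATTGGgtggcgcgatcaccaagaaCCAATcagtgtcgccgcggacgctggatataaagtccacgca
H2-D1: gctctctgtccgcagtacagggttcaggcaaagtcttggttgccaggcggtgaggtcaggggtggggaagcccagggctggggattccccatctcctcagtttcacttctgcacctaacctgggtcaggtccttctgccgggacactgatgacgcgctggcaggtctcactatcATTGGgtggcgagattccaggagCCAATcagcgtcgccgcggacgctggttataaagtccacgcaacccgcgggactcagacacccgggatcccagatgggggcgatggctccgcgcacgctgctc
H2-Eb1: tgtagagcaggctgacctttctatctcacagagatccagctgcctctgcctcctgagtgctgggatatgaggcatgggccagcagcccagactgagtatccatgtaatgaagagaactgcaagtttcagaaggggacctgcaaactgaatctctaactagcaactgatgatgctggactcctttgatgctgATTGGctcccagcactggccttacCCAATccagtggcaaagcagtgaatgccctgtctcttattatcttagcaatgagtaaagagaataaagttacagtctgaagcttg
CCAAT was found in 27 of the 31 promoters, in 7 of 8 class II and 19 of 22 class I promoters, compared with 37.4% of 32817 RefSeq promoters of the same length. The longer Y box, CTGATTGG, which contains the CCAAT letters on the reverse strand, was found in 17 of 31, compared with 4.09% of all promoters, and 8 of these 17 lay at M genes without a peak. GGGATTCCC, the kappa B site, was found at H2-K1, H2-D1, H2-Q6 and H2-Q7 (0.353% of all promoters), and GAAANNGAAA, the interferon response element, at H2-T22 and H2-T23 (3.43%). The CCAAT and Y box matches nearest the start of H2-K1 lay after it, at 8 to 12 and 8 to 15 bases. Both strands were searched for each motif, and these matches describe letters in the window only.

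In the Mof+/+ list 52 peaks fell at 20 of the 34 genes, where 44.5% of all protein-coding genes had a peak. All 9 class II genes, both classical class I genes and H2-Ke6 had peaks, compared with 4 of 6 Q genes, 3 of 4 T genes and 1 of 12 M genes. The same 20 genes had a peak within 1 kb of the main start site, where 38.5% of protein-coding genes had one. The strongest peak of a gene had a median fold enrichment of 4.20 over the 10 class I genes with a peak and 3.76 over the 9 class II genes, compared with 3.98 over all protein-coding genes with a peak. This order of the classes turned with the q-value limited to 0.001, where the medians were 4.65 for class I and 5.32 for class II. The median share of the gene body under a peak was 0 for the 24 class I genes and 34.01% for the 9 class II genes.

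**Figure D1:**
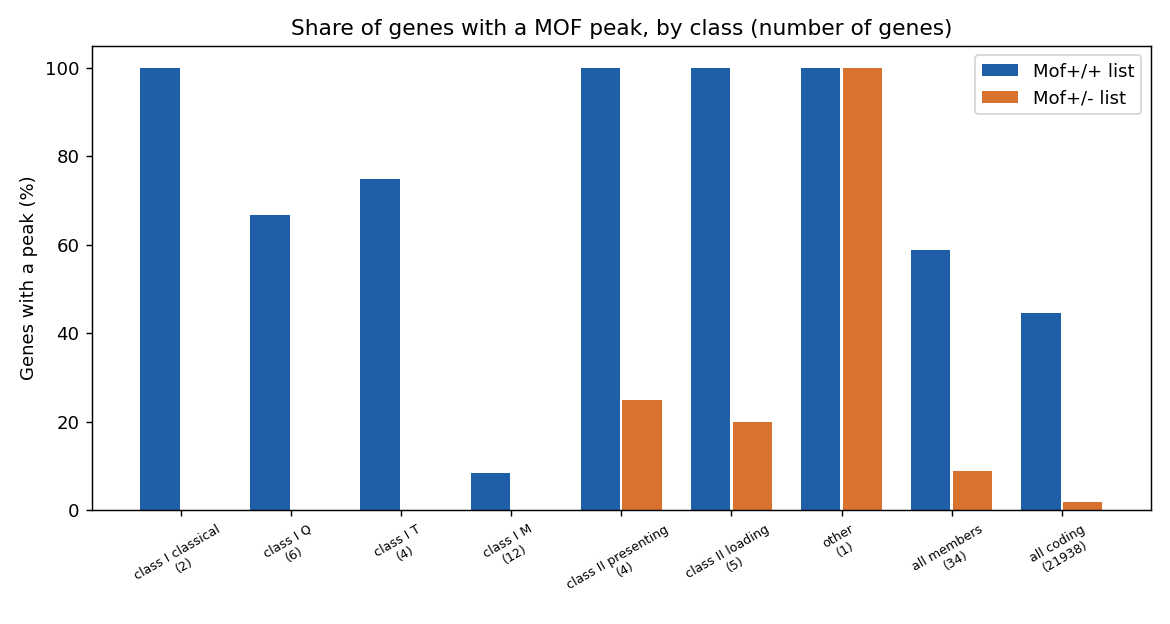
Share of genes (%) with a MOF peak for Mof+/+ (blue) and Mof+/- (orange), by class, with the number of genes in brackets, and over all protein-coding genes at the right. All 9 class II genes and 1 of 12 M genes had a Mof+/+ peak.

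Among the class II genes that present peptides, the strongest peak was 3098 to 5014 bp wide at H2-Ab1, H2-Aa and H2-Eb1, and 1574 bp wide at H2-Eb2. H2-Ab1, the beta chain of I-A, had 5 Mof+/+ peaks that covered 85.4% of its body, and the strongest was 5014 bp wide (chr17:34260555-34265568), with a fold enrichment of 7.96 (5.61 to 10.99) and its summit in a coding exon. H2-Aa, its alpha chain partner, had 3 peaks, the strongest 4589 bp wide with a fold enrichment of 6.52 (4.47 to 9.21) and its summit in an intron 223 bp after the main start. H2-Eb1, the beta chain of I-E, had 5 peaks over 78.1% of its body, the strongest at 5.32 (3.48 to 7.81) and 4252 bp into the gene. H2-Eb2, a related beta chain gene, had 2 peaks over 12.2% of its body, with the strongest at 3.32 (1.91 to 5.42). The median width of a Mof+/+ peak at the 34 genes was 1066.5 bp, compared with 609 bp over the whole list.

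Of the genes that load class II molecules, 4 had their strongest peak between 3.32 and 3.76, below the values of H2-Ab1, H2-Aa and H2-Eb1 and at or above that of H2-Eb2. Their intervals overlapped those of H2-Eb1 and H2-Aa, and the intervals of H2-DMb2 and H2-Ob overlapped that of H2-Ab1 as well. H2-DMb1 (3.32, 1.91 to 5.42) and H2-DMb2 (3.76, 2.24 to 5.97), the beta chains of the peptide exchange factor DM, had 2 and 4 peaks. H2-Oa (3.48, 2.11 to 5.45) and H2-Ob (3.54, 2.08 to 5.69), the chains of its inhibitor DO, had 2 and 4 peaks. The strongest summits lay at 2130 bp from the main start for H2-DMb1, -2329 bp for H2-DMb2, 501 bp for H2-Oa and 9692 bp for H2-Ob. The peaks with summits nearest the main start stood at 2.76 for H2-DMb1, 3.02 for H2-DMb2 and 2.89 for H2-Ob. H2-DMa, the alpha chain of DM, had 6 peaks, of which the strongest reached 10.18 (7.48 to 13.5) over 4630 bp. The summit of that peak lay at -3826 bp from the main start of H2-DMa and 535 bp from another of its annotated starts. The nearest main start, 3594 bp away, was that of Brd2, a bromodomain gene, so the peak cannot be assigned to H2-DMa alone.

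Most class II starts were poor in CpG. Within 500 bp of the main start on either side 8 of the 9 class II genes had at most 20 CpG dinucleotides, with 6 at H2-DMb2, 7 at H2-Eb1, 13 at H2-Aa and 17 at H2-Ab1, compared with a median of 43 over all protein-coding genes. All 8 had a Mof+/+ peak within 1 kb of the main start. Of the 7591 protein-coding genes with as few CpG, 5.53% had one. Among class I genes 12 starts were this poor in CpG, and 1 of them, H2-T24, had a peak. The limit of 20 was chosen after the CpG counts had been seen, and the comparison was not tested.

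Both classical class I genes had broad peaks over their starts. H2-K1 had 2 peaks that covered 81.0% of its body, the stronger 3383 bp wide with a fold enrichment of 6.34 (4.51 to 8.67) from 37 fragments. H2-D1 had 3 peaks over 58.2% of its body, the strongest 2761 bp wide at 5.41 (3.63 to 7.78). The summits lay in introns, 257 bp after the main start of H2-K1 and 616 bp after that of H2-D1.

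**Figure D2:**
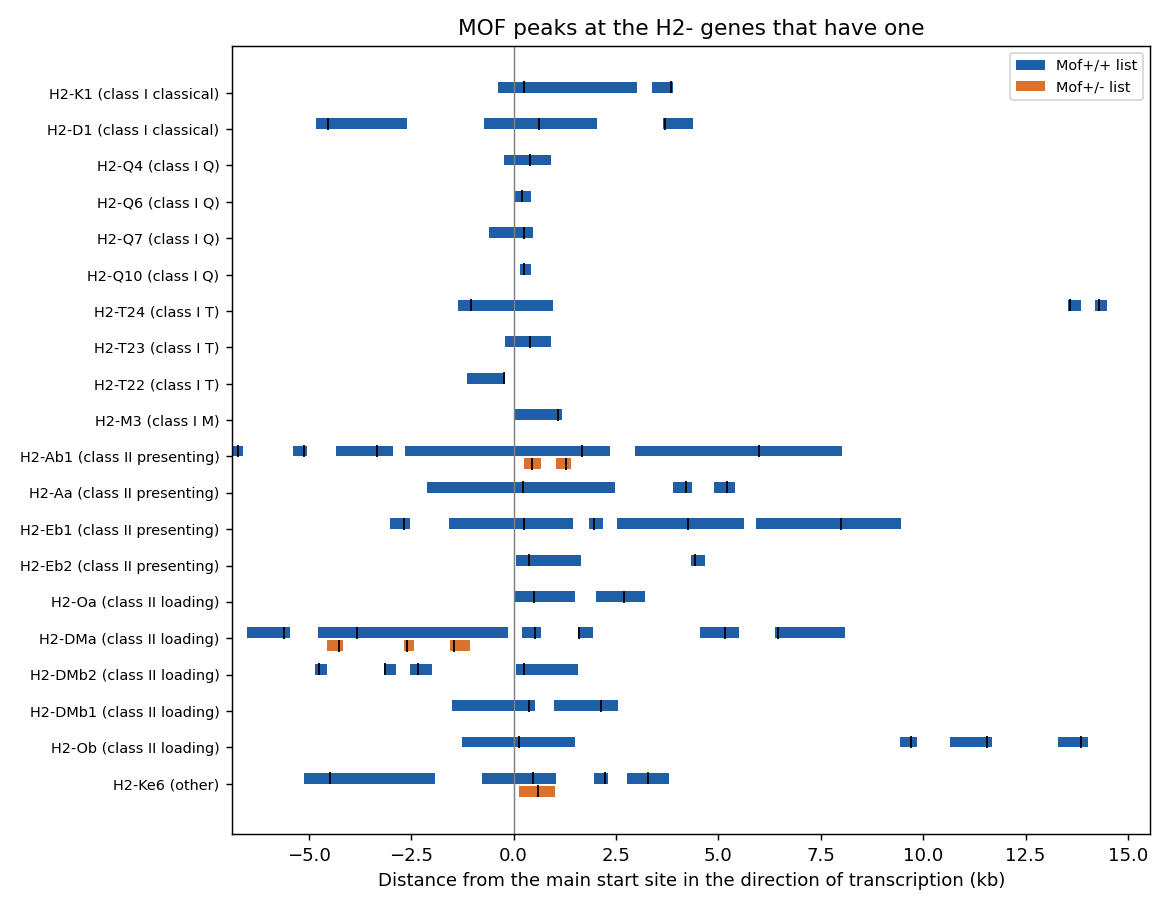
Peaks at the 20 genes with one, drawn as bars by distance from the main start site in the direction of transcription (kb), Mof+/+ in blue and Mof+/- in orange, with a black tick at each summit. The strongest peaks at H2-Ab1, H2-Aa, H2-Eb1, H2-K1 and H2-D1 were 2761 to 5014 bp wide, while each Q gene with a peak had 1 peak, 270 to 1160 bp wide, at its start.

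The nonclassical genes had fewer peaks, with 10 over 22 genes. H2-Q4 (3.02, 1.96 to 4.46), H2-Q6 (3.17, 1.97 to 4.86), H2-Q7 (3.35, 2.27 to 4.79) and H2-Q10 (3.32, 1.91 to 5.42) each had 1 peak, with its summit 202 to 395 bp after the main start. Their fold enrichments were below that of either classical gene, and their intervals overlapped with those of H2-D1. H2-Q1 and H2-Q2 had none, although their starts held 55 and 53 CpG. H2-T23, which encodes Qa-1, had 1 peak at 4.65 (2.92 to 7.05), H2-T24 had 3 with the strongest at 5.31 (3.45 to 7.86), and H2-T22 had 1 at 3.76 (2.24 to 5.97) that lay before its start and nearer to the main start of Gm6034. H2-M3, which presents formylated peptides, was the 1 M gene with a peak, at 4.65 (2.92 to 7.05) in an intron. H2-T3 and the M genes H2-M1, H2-M2, H2-M5, H2-M9, H2-M10.1, H2-M10.2, H2-M10.3, H2-M10.4, H2-M10.5, H2-M10.6 and H2-M11 had none.

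**Figure D3:**
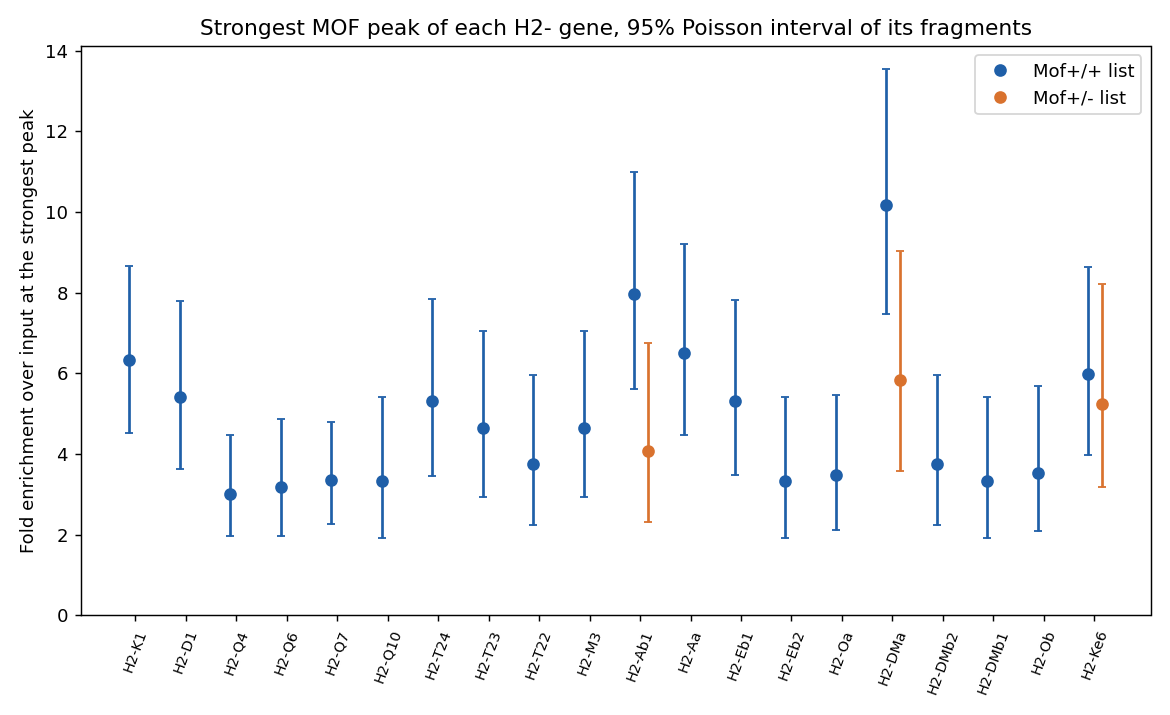
Fold enrichment over input of the strongest peak of each gene with one, in the Mof+/+ list (blue) and the Mof+/- list (orange). Bars are 95% Poisson intervals of the fragments at the summit. The Q genes sat between 3.02 and 3.35, and the peak assigned to H2-DMa, nearest to the main start of Brd2, stood at 10.18.

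The stretch that holds the class II genes was dense in peaks. From H2-Oa to H2-Eb2 (chr17:34092340-34341412) the 50 Mof+/+ peaks covered 31.9% of 249 kb, compared with 0.634% of the genome. All 5 other protein-coding genes in this stretch had a peak as well. From H2-K1 to H2-Ke6, a stretch of 32.0 kb, the peaks covered 20.7%, so that this density was not limited to the class II genes. From H2-D1 to H2-Q10 the peaks covered 2.69%, from H2-T24 to H2-T3 4.81%, and from H2-M10.2 to H2-M2, a stretch of 1199 kb, 0.353%.

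In the Mof+/- list 6 peaks fell at 3 of the 34 genes, where 1.89% of all protein-coding genes had a peak, and 2 of the 34 had one within 1 kb of the main start, where 1.07% did. H2-Ab1 had 2 peaks, both in introns, at 4.07 (2.31 to 6.76) and 3.71 (2.14 to 6.05). H2-DMa had 3, the strongest at 5.83 (3.58 to 9.03), and Brd2 had the nearest main start for each of them. Other annotated start sites of H2-DMa lay 651 to 1438 bp from the 3 summits. H2-Ke6 had 1 at 5.24 (3.17 to 8.21), which also touched the window of Ring1. All 4 Mof+/+ peaks of H2-Ke6 touched Ring1, Slc39a7 or Rxrb as well, and 9 of the 52 Mof+/+ peaks touched another protein-coding gene. No class I gene had a Mof+/- peak. All 6 peaks overlapped 1 of 3 Mof+/+ peaks, whose fold enrichments were 7.96, 10.18 and 5.97. These 3 were 5.77% of the 52 Mof+/+ peaks, compared with 2.44% over the whole Mof+/+ list. Of the 52 peaks, 33 lay below the fold enrichment of 3.68 needed for a Mof+/- call at the lowest background (63.5%, compared with 60.8% of the whole Mof+/+ list). Less is needed where the background is higher, and with the Mof+/- background raised at each site by the same factor as for Mof+/+, the need ran from 2.83 to 3.68 and 28 of the 52 lay below it. Under that scaling a Mof+/- peak of equal height would not have been called at those sites. The scaling was assumed, because the Mof+/- background was not known where no Mof+/- peak was called. Of the 12 genes whose strongest Mof+/+ peak reached 3.68, 3 had a Mof+/- peak, compared with 5.27% of the 6257 protein-coding genes that reached it.

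Duplicated sequence, within the family or elsewhere in the genome, limits how reads can be placed at these genes. The share of 50-base words of the gene body that occur more than once in the genome, on either strand, had a median of 12.8% over the 34 genes and was above 20% in 10 of them. It was highest in H2-Q7 (65.1%), H2-Q6 (56.8%), H2-T24 (48.9%) and H2-T22 (39.9%), and was 2.94% in H2-Ab1 and 0.576% in H2-Aa. H2-T24 shared 0.126% of its words with the H2- gene closest to it, so that few of its duplicated words lay in other H2- genes. H2-DMb1 and H2-DMb2 shared 1498 words with each other. H2-Q6 shared 32.9% of its words with H2-Q7. The longest run common to the peaks of these genes was 179 bases, which is given in capitals with 10 bases on each side (GRCm38, plus strand, chr17:35424881-35425079 for H2-Q6 and chr17:35439225-35439423 for H2-Q7).
H2-Q6: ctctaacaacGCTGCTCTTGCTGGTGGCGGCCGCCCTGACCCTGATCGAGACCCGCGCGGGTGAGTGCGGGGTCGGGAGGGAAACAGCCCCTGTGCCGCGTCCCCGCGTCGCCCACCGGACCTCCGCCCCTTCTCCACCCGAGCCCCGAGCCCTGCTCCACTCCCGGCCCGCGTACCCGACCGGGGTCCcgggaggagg
H2-Q7: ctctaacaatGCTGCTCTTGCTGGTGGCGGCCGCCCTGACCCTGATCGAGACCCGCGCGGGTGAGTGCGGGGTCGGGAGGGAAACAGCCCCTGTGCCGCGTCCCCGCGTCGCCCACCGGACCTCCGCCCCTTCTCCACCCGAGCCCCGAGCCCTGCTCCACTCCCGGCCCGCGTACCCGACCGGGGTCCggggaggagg
A 50-base read that lies wholly in the capitals matches both genes. The libraries were sequenced as paired-end reads, so a mate outside the run can still fix its place. Read pairs were not examined here, and the words count single reads only. Of the peaks at H2-Q6 and H2-Q7, 66.8% and 42.9% of the words were duplicated, and these were among the 4 of 52 peaks above 20%, with those at H2-T23 (22.9%) and in an intron of H2-DMa (48.7%). Over the 52 peaks this is 7.69%, compared with 2.11% of the whole Mof+/+ list. Without these 4 peaks, H2-Q6, H2-Q7 and H2-T23 had no peak and 17 genes kept one. The 14 genes without a peak had a median of 8.40% duplicated words, compared with 16.1% in the 20 with one.

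**Figure D4:**
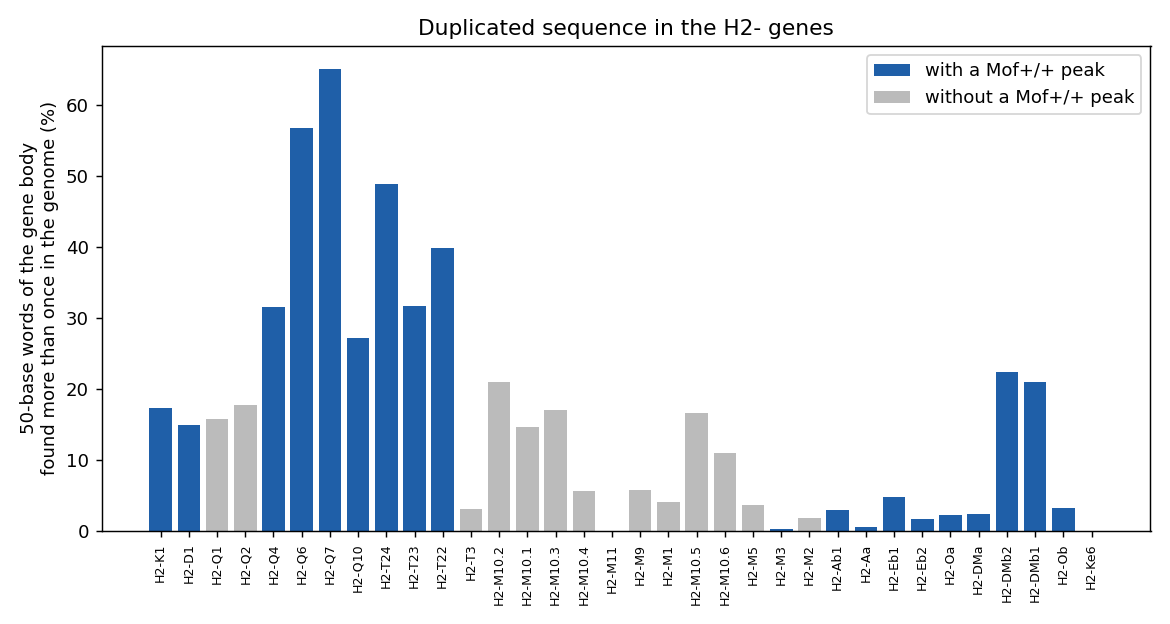
Share of 50-base words of each gene body that occur more than once in the genome (%), for genes with a Mof+/+ peak (blue) and without (grey). H2-Q7 and H2-Q6 were highest at 65.1% and 56.8%, and the 14 genes without a peak had a median of 8.40%.

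The other genes of antigen presentation were read from a list of 41 symbols, of which 39 were found. A Mof+/+ peak was present at 35 of the 39 (44.5% of all protein-coding genes), at all 14 genes of class I loading, all 3 of class II loading, all 12 regulators and 6 of 10 class I-like genes outside chromosome 17. Within 1 kb of the main start 32 of the 39 had one (38.5% of all protein-coding genes). These included 10 of 12 regulators and 5 of 10 class I-like genes. The 1 Nlrc5 peak had its summit at -38647 bp from the main start, and the 1 Nfyc peak at 5967 bp. Tap1 and Psmb9 shared their strongest peak, and both lie with Psmb8 and Tap2 in the peak-dense stretch from H2-Oa to H2-Eb2. Cd74, the invariant chain, had the highest fold enrichment at 8.85 (6.36 to 12.0) and was the 1 gene of the 39 with a Mof+/- peak (1.89% of all protein-coding genes), at 4.33 (2.498 to 7.07). It was followed by B2m (7.15), the light chain of class I molecules, Creb1 (6.81), Tapbpl (5.75) and Irf2 (5.73).

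Markers of the cells in the tissue were read in the same window. A Mof+/+ peak was present at all 6 adipocyte markers and all 5 B cell markers, at 5 of 6 T cell markers, 3 of 5 dendritic cell markers, 1 of 5 macrophage markers and 1 of 4 endothelial markers, where 44.5% of all protein-coding genes had one. Within 1 kb of the main start, where 38.5% of genes had a peak, the counts were 2 of 6 for adipocytes, 4 of 5 for B cells, 5 of 6 for T cells, 0 of 5 for dendritic cells, 1 of 5 for macrophages and 1 of 4 for endothelium. A Mof+/- peak was present at 1 of the 31 markers (1.89% of all protein-coding genes), the B cell gene Pax5, with 3 peaks of up to 4.66 (2.73 to 7.49). None of these 3 lay within 1 kb of its main start. The strongest B cell marker peaks were at Cd79a (7.52) and Cd79b (7.30), compared with Cd3d (5.75) for T cells, Cd68 (5.75) for macrophages, Pecam1 (5.53) for endothelium, Lipe (5.09) for adipocytes and Flt3 (3.98) for dendritic cells. The Cd79a and Cd68 summits lay 6082 and 3678 bp after the main start, past the end of the gene, and that of Cd79b 254 bp after it. Those of Cd3d, Lipe and Flt3 lay 4631, 8328 and 59669 bp after the main start, and that of Pecam1 at -36403 bp. Among these strongest peaks, only that of Cd79b had its summit within 1 kb of the main start. The part of any of these cell types in the class II peaks was not tested.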

How the data were processed

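MOF ChIP, H3 ChIP and input libraries of visceral WAT were made from Mof+/+ and Mof+/- mice, and the authors called peaks with MACS2 (version 2.1.1.20160309.3, bedtools also named) against input on GRCm38. The deposited lists hold, per peak, the fold enrichment as a ratio, the −log10 p-value and the −log10 q-value at the summit, and 2 numeric columns were not used. The methods describe merging of nearby peaks, but 3796 neighbouring Mof+/+ pairs and 148 Mof+/- pairs lay within 1000 bp. The highest q-value was 0.0969 and 0.0794. Python 3.11.15 with numpy 2.4.6 and scipy 1.17.1 was used for the counts. Peaks were assigned to GENCODE M21 genes, fragments were recovered from the fold enrichment and p-value (tested on simulated data), and 50-base words were counted over the genome on both strands. No sample was left out, but reads and their multi-mapping setting were not used here. Each genotype had 1 list, so no test was run. The genes and lists were chosen with earlier results of these data known. Named with values were all genes with a Mof+/- peak, all class II genes, H2-K1, H2-D1, each Q, T or M gene with a Mof+/+ peak, and the 5 pathway genes with the highest fold enrichment. Summit positions were also given for the regulators without a Mof+/+ peak within 1 kb of the main start.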

Additional observations from a re-analysis of the deposited data

How the results depend on the processing

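Alternatives were a window of 1 kb around start sites, the gene body alone, starts of protein-coding transcripts, the summit in place of 1 bp, stricter thresholds, merged neighbours and leaving out peaks with over 20% duplicated words. Of 84 counts, 77 stayed within 1.5 times the reported one. The 18 medians of fold enrichment ran from 4.20 to 4.65 for class I and from 3.54 to 5.32 for class II, and class II was the higher with the q-value limited to 0.001 alone. The 52 Mof+/+ peaks became 31 within 1 kb of a start, 29 with the q-value limited to 0.001 and 32 after merging, and the 6 Mof+/- peaks became 3 at that q-value, where H2-Ab1 had no Mof+/- peak left and H2-DMb1, H2-Eb2 and H2-Q10 no Mof+/+ peak. Of the Mof+/+ peaks, 3 overlapped a Mof+/- peak, 0 by 50% of both peaks and 5 within 1000 bp. With 100-base words 3 genes, in place of 10, had over 20% duplicated sequence. In the gene body alone H2-T22 had no peak. The causes were not tested beyond these constructions. No paired analysis was possible because the 2 peak lists used here carry no values per replicate, although the libraries are numbered, and so no replicate could be left out. Reads and signal tracks were not used here. Fold enrichments rest on 12 to 45 fragments per Mof+/+ peak and 12 to 18 per Mof+/- peak.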

Other observations

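Of the 11 H2- genes that are not protein-coding in the annotation, 5 had a Mof+/+ peak and 0 had a Mof+/- peak, where 44.5% and 1.89% of protein-coding genes had one. The strongest was assigned to H2-Ea-ps, the inactive alpha chain gene of I-E, with a fold enrichment of 5.97 and no duplicated word in the peak. This peak (chr17:34346074-34348581) lay outside the gene body (chr17:34341959-34344645). The peaks given below for H2-K2 and H2-Pb lay outside the gene body as well, while those for H2-T-ps and H2-T10 overlapped it. H2-K2 had a peak at 4.04, H2-T-ps at 3.10, H2-Pb at 3.09 and H2-T10 at 2.75, with 14.0% of the words of the peak duplicated at H2-K2, 20.1% at H2-T-ps, 29.0% at H2-Pb and 31.2% at H2-T10.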
